A study of Mus musculus with 12 samples.

Results

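Complex I genes were read in the left ventricle of mice after myocardial infarction, with and without a vector for Irx3. The genes were all rows of the deposited count table with the biotype protein_coding and a name that starts with Nduf, 48 of 56748 genes in the table. They hold 37 subunits of the enzyme, 8 assembly factors whose names start with Ndufaf, and 3 further genes, Ndufa4, Ndufa4l2 and Ndufb11b. Membership thus rests on name and biotype and not on a measured value, though the set was chosen with earlier results of these data known. Of the 48, 47 had enough counts to be tested, and Ndufb11b had 0 counts in every library, which allows up to 3 counts in each.

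The mice were wild-type C57BL/6J animals injected through the tail vein with AAV9, an adeno-associated virus that reaches heart muscle. The first group carried the AAV9-Irx3 vector, which was made to raise the homeobox transcription factor Irx3, and had infarction by ligation of the left anterior descending coronary artery. The second group carried the AAV9 control vector and had the same infarction, and the third carried the control vector and had sham surgery. Each group had 4 libraries of polyadenylated RNA taken 14 days after surgery, and since Irx3 vector was not combined with sham surgery, its comparison was made in infarcted hearts alone. The labels do not give the promoter of the vector.

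Complex I, or NADH:ubiquinone oxidoreductase, is the largest enzyme of the mitochondrial respiratory chain. It takes electrons from NADH, passes them through a flavin and a chain of iron-sulfur clusters in a peripheral arm that reaches into the matrix, hands them to ubiquinone, and uses the energy to pump protons through an arm that lies in the inner membrane. The core subunits of the peripheral arm are nuclear genes and those of the membrane arm are encoded by mitochondrial DNA, while many accessory subunits, all nuclear, surround both arms. Assembly factors build the modules and are not part of the finished enzyme. Heart muscle is rich in mitochondria and depends on this enzyme for its ATP.

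Total counts ran from 13352604 to 19236721 per library. Irx3 ran from 285 to 513 CPM (normalised read counts, with TMM factors) with Irx3 vector and infarction, from 16.8 to 30.5 CPM with control vector and infarction, and from 20.5 to 25.9 CPM in sham hearts, so every library with Irx3 vector stood above every library with control vector. The labels call the cell type cardiomyocytes and the source left ventricle. All 9 fibroblast, 8 macrophage and 6 endothelial markers had counts in every library, as did all 12 cardiomyocyte markers, so the values are those of ventricle tissue. The 12 cardiomyocyte markers summed to between 36125 and 60325 CPM with Irx3 vector and infarction, 28527 and 73825 CPM with control vector and infarction, and 116669 and 136649 CPM in sham hearts. The fibroblast markers summed to between 3863 and 25443 CPM with Irx3 vector and infarction, 13220.1 and 36692 CPM with control vector and infarction, and 696 and 892 CPM in sham hearts. Replicate 4 of infarction with control vector stood apart, with the lowest cardiomyocyte sum and the highest fibroblast sum of all 12 libraries. It also held the lowest share of counts in mitochondrially encoded genes, 0.926%, against 2.06% to 5.64% in the other libraries of its group. That share was 10.4% to 19.0% with Irx3 vector and infarction and 4.50% to 8.22% in sham hearts.

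Together the Nduf genes took 0.466% to 0.824% of all counts with Irx3 vector and infarction, 0.385% to 0.752% with control vector and infarction, and 1.07% to 1.21% in sham hearts. Per kilobase of exon, the scale on which genes can be ranked against each other, the highest sham level was that of Ndufs7 at 1252 ± 319 CPM per kb (SD, n = 4). Ndufb10, an accessory subunit of the membrane arm, had 1007 ± 172 CPM per kb. Both were read in the same 4 sham libraries, so these SDs do not measure the difference between the genes, which was not tested. At the other end stood Ndufb2 at 1.70 ± 0.66, Ndufaf2 at 6.24 ± 1.84 and Ndufaf4 at 6.73 ± 0.90 CPM per kb. The exon length of Ndufb2 was 4375 bases in the annotation used, one of the longest among the members, so its level per kb depends on which exons that annotation counts. All 8 assembly factors lay at or below 28.9 CPM per kb in sham hearts, a level that 34 of the 37 subunits exceeded.

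The first comparison set infarction against sham surgery, both with control vector. Nearly all of its nuclear transcripts were lower: of the 47 genes tested 40 fell, 1 rose and 6 did not pass the test. Over all 15742 genes tested, 22.4% were called lower and 26.3% higher in the same comparison (edgeR quasi-likelihood test, with a call at an adjusted p under 0.05). The median log2 fold change of the members was -0.97, against 0.01 for all genes. With transcript GC content corrected for, as described further on, 39 fell and 1 rose, against 22.4% lower and 30.4% higher of all genes. In 40 members every infarcted library lay below every sham library, as in 22.8% of all genes. The single rise was Ndufa4l2, described with its paralog further on.

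The 6 core subunits of the peripheral arm described here fell, with log2 fold changes between -1.32 and -1.09 and a median of -1.23. Ndufv1, which binds NADH and the flavin, had 627, 658, 623 and 398 CPM in infarcted hearts with control vector, against 1197, 1482, 1606 and 1314 CPM in sham hearts. The groups lay far apart, and infarcted replicate 4 was the lowest. Ndufv1 fell 2.43-fold (log2 fold change -1.28, SE 0.25, edgeR adjusted p = 0.0011).

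Ndufs7, which carries the last iron-sulfur cluster before ubiquinone, had 668, 455, 476 and 369 CPM after infarction, against 924, 1394, 1589 and 1017 CPM in sham hearts. Both groups were wide and still separate. Its fall, 2.504-fold, was the largest of the 47 members in this comparison (log2 fold change -1.32, SE 0.28, edgeR adjusted p = 0.00178). Ndufs8, another carrier of iron-sulfur clusters, had 158, 174, 151 and 107 CPM after infarction, against 275, 338, 359 and 302 CPM in sham hearts. Ndufs3, a core subunit without a cluster, had 193, 224, 199.7 and 96.97 CPM after infarction, against 394, 427, 435 and 419.8 CPM in sham hearts. Neither gene overlapped between the groups, and their log2 fold changes were -1.11 and -1.23 (SE 0.25 and 0.27, edgeR adjusted p = 0.00258 and 0.00251).

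Ndufs1 and Ndufv2 varied more among the infarcted hearts. Ndufs1, the largest iron-sulfur subunit, had 206, 367, 269 and 93.2 CPM after infarction, against 577, 503, 529.6 and 594 CPM in sham hearts. Ndufv2, the partner of Ndufv1 in the NADH-binding module, had 77.8, 157, 102 and 32.96 CPM, against 228, 184, 167 and 209 CPM in sham hearts. In both, infarcted replicate 2 came nearest to the sham hearts and replicate 4 was far below the rest. Ndufs1 fell by 1.24 (SE 0.33, edgeR adjusted p = 0.00756) and Ndufv2 fell by 1.09 (SE 0.39, edgeR adjusted p = 0.0333) on the log2 scale. The call of Ndufv2 was lost without sham replicate 1, 2 or 4 or infarcted replicate 1, with adjusted p-values up to 0.0748 in edgeR.

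**Figure D1:**
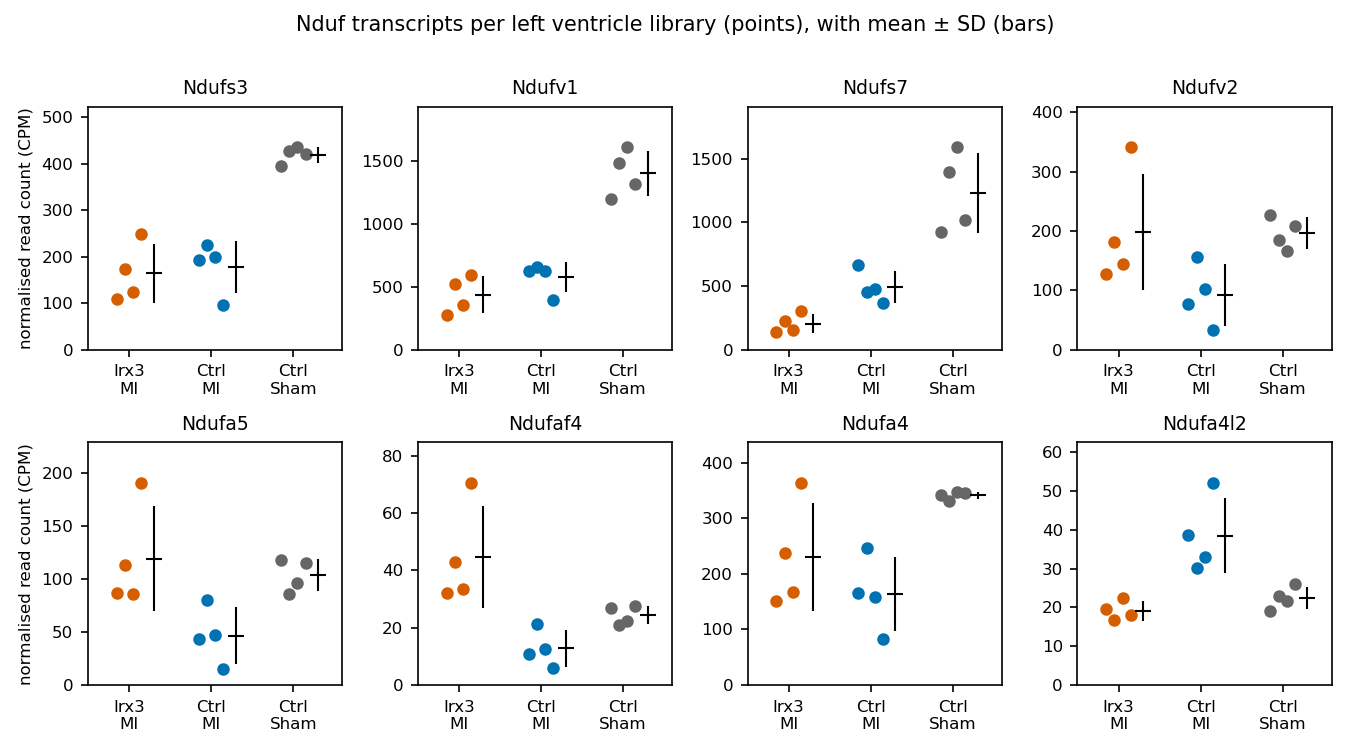
Normalised read counts (CPM, vertical axis) of 8 Nduf genes in each of the 12 libraries, by group; points are libraries and bars the mean ± SD of 4. Ndufs3, Ndufv1 and Ndufs7 sit above both infarcted groups in sham hearts, Ndufaf4 is highest with Irx3 vector at 32.2 to 70.6 CPM, and Ndufa4l2 is highest with control vector after infarction at 30.3 to 52.2 CPM.

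Among the 9 accessory subunits of the peripheral arm 8 fell, with a median log2 fold change of -1.15. Ndufs4, an accessory subunit known for its loss in Leigh syndrome in humans, fell by 1.24 (SE 0.27, edgeR adjusted p = 0.00214) and Ndufs6, which binds zinc, by 1.22 (SE 0.28, edgeR adjusted p = 0.0033). Ndufs6 had 146, 160.2, 122 and 71.6 CPM after infarction, against 259, 303, 340.04 and 266 CPM in sham hearts, with no overlap. The smallest called fall was that of Ndufa7, by 0.77. Ndufa12 did not pass, at -1.14 on the log2 scale (SE 0.57, edgeR adjusted p = 0.114), and its counts are uncertain for a reason given further on.

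In the membrane arm 16 of the 20 accessory subunits fell, and the median of -0.95 was smaller in size than that of either peripheral list. Ndufb10 had 375, 359, 325 and 186 CPM after infarction, against 635, 803, 883 and 629 CPM in sham hearts. Ndufb8 had 262, 238, 203 and 114 CPM after infarction, against 399, 492, 549 and 398 CPM in sham hearts. Both were well separated, at log2 fold changes of -1.24 and -1.17 (SE 0.28 and 0.30, edgeR adjusted p = 0.00278 and 0.00557). The 4 that did not pass were Ndufa11, Ndufb1, Ndufb2 and Ndufc1, at -0.50, -0.64, -0.85 and -0.90 (edgeR adjusted p between 0.0696 and 0.161). For Ndufa11 and Ndufb1 all infarcted libraries still lay below all sham libraries. Ndufab1, the mitochondrial acyl carrier protein that sits in both arms and also serves fatty acid and lipoic acid synthesis, had 51.2, 67.2, 43.3 and 25.1 CPM, against 101, 99.5, 115 and 103 CPM in sham hearts. It did not overlap between groups and fell by 1.17 (SE 0.29, edgeR adjusted p = 0.00529).

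Of the 8 assembly factors 7 fell, with a median of -0.83. The largest fall was that of Ndufaf6, which acts early in assembly, by 1.03 (SE 0.32, edgeR adjusted p = 0.0161). Ndufaf2, a paralog of Ndufa12 that holds its place on the assembly intermediate, did not pass at -0.33 (SE 0.27, edgeR adjusted p = 0.333). The weakest calls were Ndufb5, Ndufaf8 and Ndufv2, at edgeR adjusted p-values of 0.0445, 0.0493 and 0.0333. Of the 41 calls in this comparison, 33 were kept with each of the 12 libraries left out in turn. The other 8 were Ndufv2, Ndufb4 (lost without sham replicate 3), Ndufa5 (without sham replicate 1 or 4), Ndufa7 (without sham replicate 2 or 3), Ndufaf4 (without sham replicate 1 or 4 or infarcted replicate 1), Ndufaf1 (without sham replicate 2, 3 or 4 or infarcted replicate 1), and Ndufaf8 and Ndufb5, each lost without any 1 sham library. Ndufaf8 was also lost without infarcted replicate 4, and Ndufb5 without infarcted replicate 1, 3 or 4. The size of the fall followed abundance: across the 47 members the Spearman correlation of log2 fold change with mean sham CPM was -0.74. That is a description, since the members share the same 8 libraries and the sham level enters both measures.

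The fall of the Nduf genes stood beside a fall of most of the cardiomyocyte markers. Of the 12 cardiomyocyte markers 10 fell and none rose, with a median of -1.17. All 9 fibroblast markers and all 8 macrophage markers rose, with medians of 3.54 and 2.33. Of all genes tested, 22.4% fell and 26.3% rose. Fewer cardiomyocytes in the tissue and less of these transcripts in each cardiomyocyte cannot be told apart in bulk RNA. Per library, the median log2 difference of the members from the sham mean was -0.96, -0.58, -0.94 and -1.90 in the 4 infarcted hearts with control vector. The lowest belonged to replicate 4, the library with the lowest cardiomyocyte and highest fibroblast sums. The part of cell composition in these values was not tested.

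**Figure D2:**
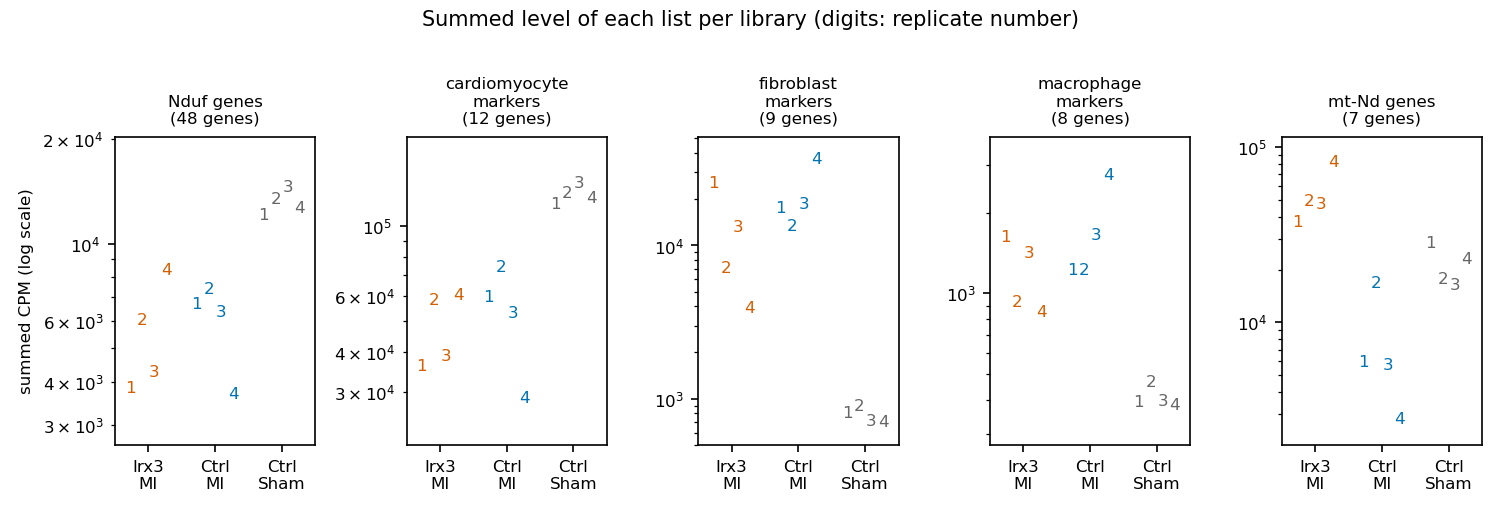
Summed CPM (log axis) of the Nduf genes, the cardiomyocyte, fibroblast and macrophage markers and the mitochondrially encoded subunits of complex I, for the 12 libraries by group; digits are replicate numbers. Replicate 4 of infarction with control vector is lowest for the Nduf genes, at 3683 CPM, and highest for fibroblast markers, at 36692 CPM.

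The second comparison set Irx3 vector against control vector among infarcted hearts. Here the Nduf genes did not move together: 10 of the 47 rose, 6 fell and 31 did not pass. Of all genes tested, 25.2% were called higher and 24.1% lower with Irx3 vector, so the shares of the members, 21.3% and 12.8%, were under the background. The median log2 fold change of the members was 0.13, against 0.00 for all genes. Groups did not overlap for 5 members, 3 higher and 2 lower, against 22.1% and 18.9% of all genes in the same directions.

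**Figure D3:**
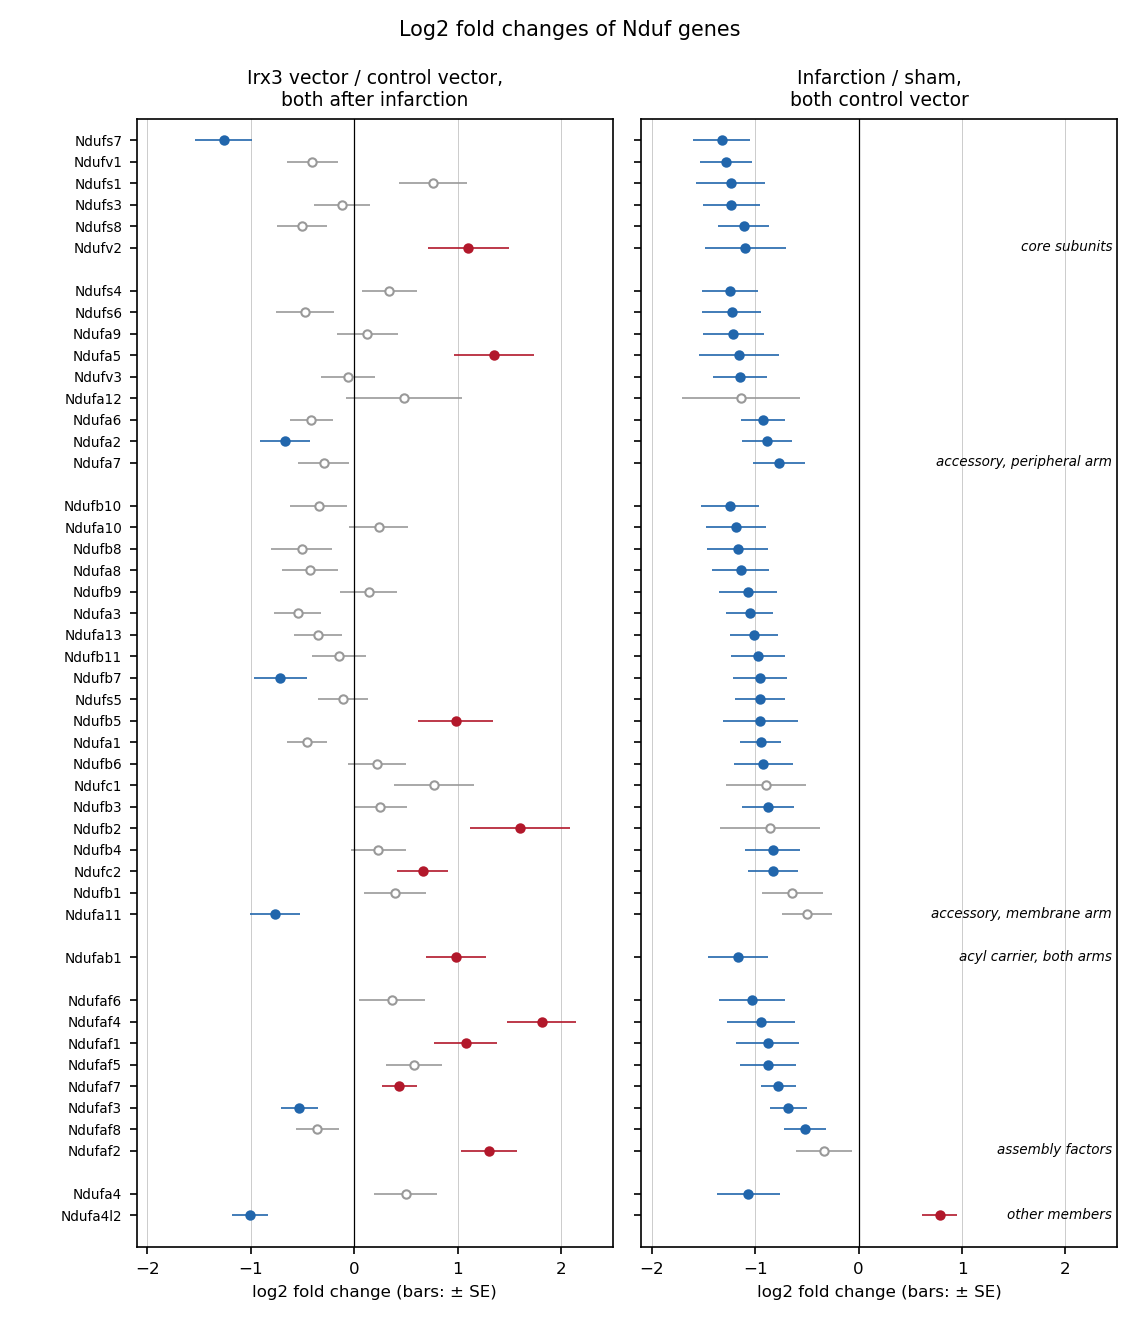
Log2 fold changes with their standard errors for 46 Nduf genes, ordered by role, for Irx3 vector against control vector after infarction (left) and infarction with control vector against sham (right). Filled points were called by edgeR, red for higher and blue for lower; most points of the right panel are filled blue, and the left panel scatters on both sides of 0.

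Of the 8 assembly factors 4 rose and 1 fell as counted, against 25.2% higher and 24.1% lower of all genes tested, with a median of 0.51. After a correction for GC content, described further on, 2 of the 8 rose and none fell, with a median of 0.30. Of all genes 13.7% were then called higher and 13.3% lower. Ndufaf4, which acts with Ndufaf3 in building the module that holds the ubiquinone site, had 32.2, 42.9, 33.4 and 70.6 CPM with Irx3 vector, against 10.96, 21.5, 12.6 and 5.94 CPM with control vector. Every library with Irx3 vector was higher than every one with control vector. Ndufaf4 rose 3.51-fold (log2 fold change 1.81, SE 0.33, edgeR adjusted p = 0.000763), the largest change of the 47. Ndufaf2 had 6.86, 7.18, 6.26 and 13.1 CPM with Irx3 vector, against 3.91, 3.11, 2.90 and 3.51 CPM with control vector. These groups did not overlap either, and replicate 4 with Irx3 vector stood well above its neighbours. Ndufaf2 rose 2.47-fold (log2 fold change 1.31, SE 0.27, edgeR adjusted p = 0.00153).

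Ndufaf1, which works in the assembly complex with Ecsit, Acad9 and Tmem126b, had 17.9, 23.2, 16.6 and 36.3 CPM with Irx3 vector, against 9.16, 16.7, 13.3 and 5.37 CPM with control vector. The groups touched, since replicate 3 with Irx3 vector lay just under replicate 2 with control vector. Ndufaf7, an arginine methyltransferase, had 16.7, 19.1, 15.7 and 25.4 CPM, against 12.1, 16.6, 15.999 and 11.99 CPM with control vector, with overlap. Ndufaf1 rose by 1.08 (SE 0.31, edgeR adjusted p = 0.0108) and Ndufaf7 by 0.44 (SE 0.17, edgeR adjusted p = 0.0464). Ndufaf3, the partner of Ndufaf4, fell by 0.53 as counted (SE 0.18, edgeR adjusted p = 0.0267) and stood at -0.09 after a correction for GC content described further on (edgeR adjusted p = 0.724). Ndufaf5, Ndufaf6 and Ndufaf8 did not pass, at 0.58, 0.37 and -0.36 (edgeR adjusted p between 0.0874 and 0.352).

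Ndufa5, an accessory subunit of the peripheral arm, had 86.4, 113, 85.5 and 191 CPM with Irx3 vector, against 43.4, 80.1, 47.3 and 15.3 CPM with control vector. No library overlapped, and Ndufa5 rose 2.56-fold (log2 fold change 1.35, SE 0.38, edgeR adjusted p = 0.0106). Ndufv2 had 128, 181, 145 and 341 CPM, against 77.8, 157, 102 and 32.96 CPM with control vector, with overlap, and rose by 1.11 (SE 0.39, edgeR adjusted p = 0.0316). Ndufv1, its partner in the same module, had 274, 519, 354 and 595 CPM, against 627, 658, 623 and 398 CPM with control vector, and did not pass at -0.40 (SE 0.25, edgeR adjusted p = 0.189). The difference between the 2 genes was not tested, and after the GC correction neither passed, at 0.49 for Ndufv2 and 0.10 for Ndufv1 (edgeR adjusted p = 0.306 and 0.794).

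Ndufs7 fell. It had 138, 225, 155 and 303 CPM with Irx3 vector, against 668, 455, 476 and 369 CPM with control vector, and every library with Irx3 vector was lower. The fall was 2.40-fold (log2 fold change -1.26, SE 0.28, edgeR adjusted p = 0.0024). The core subunits Ndufs1, Ndufs3 and Ndufs8 stood at 0.76, -0.12 and -0.50 and did not pass (edgeR adjusted p between 0.069 and 0.738). Ndufs1 had 274, 419.5, 337 and 555 CPM with Irx3 vector, against 206, 367, 269 and 93.2 CPM with control vector. Ndufs3 had 109, 175, 125 and 249 CPM with Irx3 vector, against 193, 224, 199.7 and 96.97 CPM with control vector. Ndufs8 had 73.1, 105, 72.2 and 167 CPM with Irx3 vector, against 158, 174, 151 and 107 CPM with control vector. All 3 overlapped between the groups. Ndufa2, an accessory subunit with a thioredoxin-like fold, fell by 0.67 (SE 0.24, edgeR adjusted p = 0.0335).

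In the membrane arm Ndufb2, Ndufb5 and Ndufc2 rose and Ndufa11 and Ndufb7 fell, and 15 of 20 did not pass. Ndufb2 had 8.74, 12.5, 9.64 and 19.3 CPM with Irx3 vector, against 2.06, 8.84, 4.27 and 1.39 CPM with control vector, and rose 3.04-fold (log2 fold change 1.60, SE 0.48, edgeR adjusted p = 0.0144). Only the lowest library with Irx3 vector reached into the control vector range. Ndufb5 had 92.3, 144, 106 and 218 CPM, against 52.4, 122, 79.7 and 30.2 CPM with control vector, and rose by 0.98 (SE 0.36, edgeR adjusted p = 0.038). Ndufc2 had 59.97, 78.7, 57.8 and 121 CPM, against 48.5, 66.7, 54.8 and 30.2 CPM with control vector, and rose by 0.66 (SE 0.25, edgeR adjusted p = 0.0381). Both overlapped between the groups. Ndufa11, which helps to hold complex I in supercomplexes, had 85.7, 132, 85.4 and 191 CPM, against 223, 224, 241 and 149 CPM with control vector, and fell by 0.76 (SE 0.24, edgeR adjusted p = 0.0186). Ndufb7 had 82.9, 138, 81.9 and 177 CPM, against 253, 191, 194 and 147 CPM with control vector, and fell by 0.71 (SE 0.26, edgeR adjusted p = 0.0353). In both, replicate 4 with Irx3 vector was the library that overlapped. Ndufab1 had 60.2, 87.1, 72.8 and 149.8 CPM, against 51.2, 67.2, 43.3 and 25.1 CPM with control vector, and rose by 0.98 (SE 0.29, edgeR adjusted p = 0.0132).

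The direction of these changes followed the base composition of the transcripts. Across the 47 members the Spearman correlation of log2 fold change with transcript GC content was -0.75, and across all genes with a known GC content it was -0.65. The members share the same 8 libraries, so this is a description. Of the 16 members of lowest GC content (42.3% to 49.3%) 9 rose and none fell, with a median of 0.72. In the middle 15 there were 1 rise and 1 fall, with a median of -0.11. Of the 16 of highest GC content (53.9% to 60.4%) none rose and 5 fell, with a median of -0.38. No such order was seen in infarction with control vector against sham, where the correlation over the members was -0.11.

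The last 90 bases before the stop codon are given here for a pair of genes that rose and a pair that fell with Irx3 vector. They were chosen for their contrast in composition and are not the extremes on every measure. The sequences are from the GENCODE M21 transcripts on GRCm38 (sense strand), with G and C in capitals.
Ndufaf4 (higher, 32.2% G and C in this stretch): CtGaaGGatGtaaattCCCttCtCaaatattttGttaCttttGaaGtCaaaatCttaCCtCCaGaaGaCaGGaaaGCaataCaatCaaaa
Ndufab1 (higher, 34.4%): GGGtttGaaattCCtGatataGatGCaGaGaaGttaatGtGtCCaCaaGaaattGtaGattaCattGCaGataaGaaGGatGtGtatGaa
Ndufs7 (lower, 56.7%): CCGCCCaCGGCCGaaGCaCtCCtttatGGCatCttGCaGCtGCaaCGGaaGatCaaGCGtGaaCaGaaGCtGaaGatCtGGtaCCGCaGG
Ndufb7 (lower, 63.3%): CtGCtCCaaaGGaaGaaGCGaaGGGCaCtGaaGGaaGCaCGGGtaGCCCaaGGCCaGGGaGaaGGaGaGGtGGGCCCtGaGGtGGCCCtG
The whole transcripts had 42.3% G and C for Ndufaf4, 45.4% for Ndufab1, 60.1% for Ndufs7 and 59.7% for Ndufb7. Over all called members the coding ends overlapped, at 32.2% to 55.6% G and C in the 10 that rose and 51.1% to 63.3% in the 6 that fell. Ndufv2 and Ndufaf2, which rose, had 55.6%, and Ndufa2, which fell, had 51.1%. The whole transcripts had 42.3% to 50.7% in the 10 and 51.7% to 60.1% in the 6.

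A second fit therefore removed, per library, the trend of read counts with GC content over all genes. Over the members, the trend was negative in every library with Irx3 vector and of either sign within each other group. The Spearman correlation of the difference from the sham mean with GC content was -0.68 to -0.62 in the libraries with Irx3 vector. It was -0.45 to 0.41 in the infarcted libraries with control vector. In the sham libraries, which themselves make up that mean, it was -0.60 to 0.63. A technical trend and an effect of the vector that follows GC content cannot be told apart in this design, and the fit removes both. In it 4 members rose and 1 fell, against 13.7% higher and 13.3% lower of all genes tested. The 4 rises were Ndufb2, Ndufa5, Ndufaf2 and Ndufaf4, at log2 fold changes of 1.49, 1.404, 0.98 and 0.93 (edgeR adjusted p = 0.0315, 0.0166, 0.0182 and 0.0198). The fall was that of Ndufa1, a small membrane-arm subunit, at -0.78 (edgeR adjusted p = 0.00876), which had not passed without the correction. The other 12 calls were lost: Ndufs7 stood at -0.62 (edgeR adjusted p = 0.0928), Ndufv2 at 0.49 (adjusted p = 0.306) and Ndufb7 at -0.09 (adjusted p = 0.817). The correlation with GC content over the 47 members became -0.24. Ndufa5 and Ndufa1 were called with each of the 12 libraries left out in turn, Ndufaf2 and Ndufaf4 with 10 and Ndufb2 with 7.

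**Figure D4:**
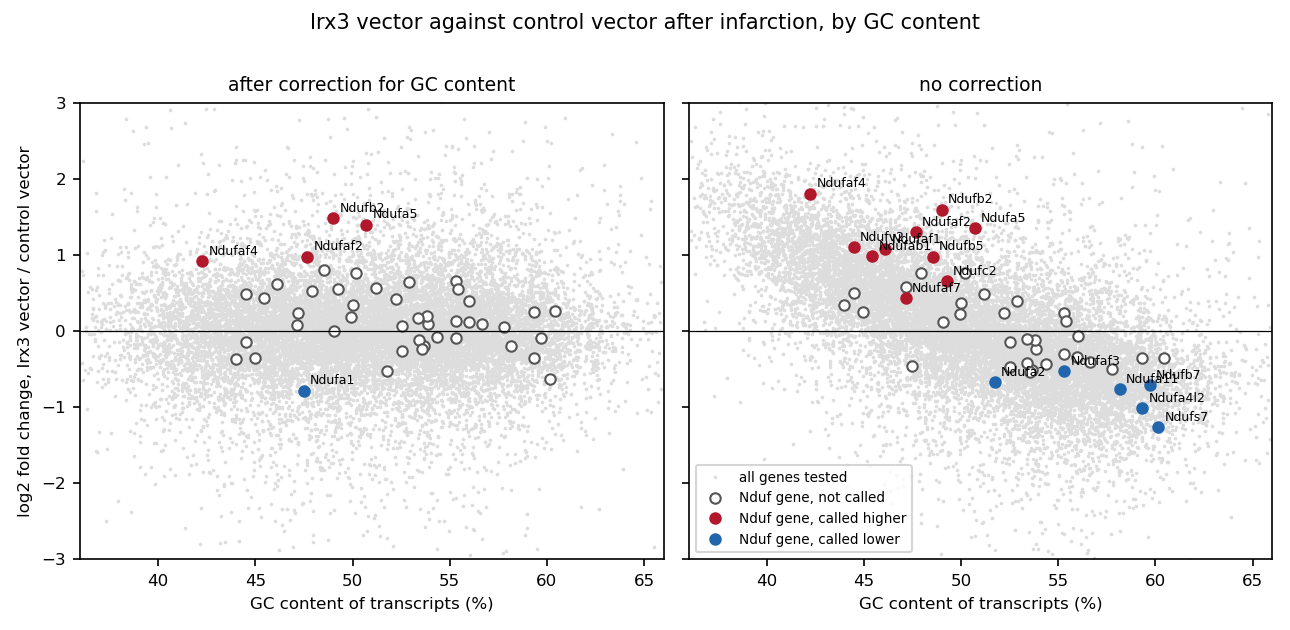
Log2 fold change of the 47 Nduf genes for Irx3 vector against control vector after infarction (vertical axis) against the GC content of their transcripts in percent (horizontal axis), after correction for GC content (left) and as counted (right), with all genes tested as grey points within the axis range. As counted the points run downward with GC content (Spearman -0.75); after correction the trend is weaker (-0.24) and 5 of the 47 are called.

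Single libraries moved the uncorrected calls. Of the 16, 8 were kept with each of the 12 libraries left out: Ndufs7, Ndufa4l2, Ndufaf4, Ndufaf2, Ndufa5, Ndufb2, Ndufaf1 and Ndufab1. Ndufa11 was lost without replicate 3 with Irx3 vector. Ndufb7, Ndufa2 and Ndufaf3 were each lost without replicate 1 or 3 of either infarcted group. Ndufv2 and Ndufb5 were lost without replicate 1, 3 or 4 with control vector or replicate 4 with Irx3 vector, and Ndufb5 also without replicate 2 with Irx3 vector. Ndufc2 was called in 3 and Ndufaf7 in 4 of the 12 fits. Fewer members fell without replicate 1 of infarction with control vector (3), without replicate 1 (3) or replicate 3 (2) with Irx3 vector, and more fell without replicate 4 with control vector (13) or replicate 4 with Irx3 vector (15). The rises were 6 without replicate 1 or replicate 4 with control vector and 6 without replicate 4 with Irx3 vector. Per library the median of the members against the sham mean was -1.52, -0.87, -1.36 and -0.34 in the hearts with Irx3 vector, so replicate 4 of that group lay nearest to sham hearts. That library also had the lowest fibroblast sum of the infarcted hearts, 3863 CPM, and the highest share of mitochondrially encoded counts. With Irx3 vector against control vector 1 of the 12 cardiomyocyte markers rose and 4 fell, with a median of -0.25. Of the 9 fibroblast markers 2 fell and none rose, with a median of -0.70. Of all genes tested, 25.2% were called higher and 24.1% lower. With the correction for GC content 1 cardiomyocyte marker rose and none fell, with the median turned to 0.21. Then 3 fibroblast markers fell and none rose, with a median of -0.49, against 13.7% higher and 13.3% lower of all genes. Of the 8 macrophage markers 1 rose and 3 fell as counted, and of the 6 endothelial markers 2 rose and 4 fell. With the correction no macrophage marker was called, and 1 endothelial marker rose and 1 fell. The part of all these markers in the values of the members was not tested. The spread among members was wider in the Irx3 libraries, with SDs of 0.69 to 0.83 on the log2 scale, than in the other infarcted libraries, with SDs of 0.33 to 0.67. The SDs overlapped after the GC correction, at 0.54 to 0.67 with Irx3 vector and 0.33 to 0.62 with control vector.

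The promoters of Ndufaf4 and Ndufa11 are shown because both hold the core of the palindrome of nuclear respiratory factor 1 (NRF1). This factor is known to bind promoters of respiratory chain genes. As counted, the 2 genes were called in opposite directions with Irx3 vector. After the GC correction Ndufa11 did not pass, at -0.19 (edgeR adjusted p = 0.614). Promoter sequences ran from 250 bases before to 50 after the gene start (RefSeq, GRCm38.p6) and were found for 41 of the 48 members. The core word GCATGCG is in capitals.
Ndufaf4, plus strand, chr4:24897947-24898003: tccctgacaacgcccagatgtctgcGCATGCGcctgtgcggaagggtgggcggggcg
Ndufa11, plus strand, chr17:56717679-56717735: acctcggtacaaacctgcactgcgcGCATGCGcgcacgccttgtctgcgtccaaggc
The word GCATGCG, searched on both strands, was in 5 of the 41 promoters (12.2%), those of Ndufaf4, Ndufa11, Ndufaf5, Ndufa6 and Ndufa8, and in 4.01% of the promoters of all genes. In Ndufaf4, Ndufa11, Ndufaf5 and Ndufa8 its reverse complement CGCATGC overlapped it. The word CCGGAAG of ETS factors was in 6 of 41 (14.6%, against 9.93% of all genes) and the word AAGGTCA of oestrogen-related receptors in 3 of 41 (7.32%, against 5.38%), both also on either strand. Of the 6 genes with the ETS word, Ndufaf1 rose and Ndufb7 fell with Irx3 vector as counted, and neither passed after the GC correction. The others, Ndufaf8, Ndufb6, Ndufs3 and Ndufs8, did not pass. A match of letters is a description and not a bound site.

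The third comparison set infarction with Irx3 vector (Irx3 hearts) against sham surgery with control vector. It shares the Irx3 libraries with the second comparison and the sham libraries with the first, and those share the infarcted libraries with control vector. Of the 47 members 28 fell, 2 rose and 17 did not pass, against 27.7% lower and 35.2% higher of all genes tested. The median log2 fold change of the members was -0.93, against 0.12 for all genes. After the GC correction 25 fell and 2 rose, against 21.9% and 32.5% of all genes tested. In 28 members every library with Irx3 vector and infarction lay below every sham library, as in 27.6% of all genes.

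Of the 6 core subunits described 4 fell, with a median of -1.48, and Ndufs1 and Ndufv2 did not pass. Among the accessory subunits 7 of 9 in the peripheral arm and 14 of 20 in the membrane arm fell. Ndufs7 had 138, 225, 155 and 303 CPM with Irx3 vector and infarction, against 924, 1394, 1589 and 1017 CPM in sham hearts, and fell 6.00-fold (log2 fold change -2.59, SE 0.29, edgeR adjusted p = 1.16e-05). This was the largest fall of the members in any of the 3 comparisons, and after the GC correction it was -1.95 (edgeR adjusted p = 9.15e-05). Ndufs6 followed with 65.6, 101, 56.1 and 138 CPM, against 259, 303, 340.04 and 266 CPM in sham hearts, and Ndufv1 had the values given above. Their log2 fold changes were -1.70 and -1.68 (SE 0.29 and 0.25, edgeR adjusted p = 0.000236 and 9.19e-05). Ndufb8 had 97.2, 167, 93.7 and 218 CPM, against 399, 492, 549 and 398 CPM in sham hearts. Ndufb10 had 174, 268, 167 and 374 CPM with Irx3 vector and infarction, against 635, 803, 883 and 629 CPM in sham hearts. Neither overlapped, and their log2 fold changes were -1.67 and -1.59 (SE 0.30 and 0.28, edgeR adjusted p = 0.000351 and 0.000341).

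The 2 rises were assembly factors. Ndufaf2 had 6.86, 7.18, 6.26 and 13.1 CPM with Irx3 vector and infarction, against 4.14, 3.58, 6.01 and 3.20 CPM in sham hearts, and rose by 0.98 (SE 0.27, edgeR adjusted p = 0.00621). Ndufaf4 had 32.2, 42.9, 33.4 and 70.6 CPM, against 26.96, 21.1, 22.3 and 27.5 CPM in sham hearts, and rose by 0.87 (SE 0.32, edgeR adjusted p = 0.0312). Both were apart from sham hearts. The rise of Ndufaf2 was still called after the GC correction, at 0.75 (edgeR adjusted p = 0.0315). With the correction and 1 library left out it was called in 8 of the 12 fits, with edgeR adjusted p-values up to 0.103. The rise of Ndufaf4 was not called after the correction, at 0.02 (edgeR adjusted p = 0.96). The call of Ndufaf4 was also lost without any 1 of 6 libraries, replicates 1, 2 or 3 of the sham group, replicate 3 of infarction with control vector, and replicates 2 or 4 with Irx3 vector. Of the 30 calls 27 were kept with each library left out. Ndufb6 and Ndufb3 were each lost without any 1 sham library or without replicate 1 or 3 of the Irx3 hearts. Ndufaf4 was the third.

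Set side by side, the comparisons sort the members into patterns, which rest on calls against shared groups. The infarcted libraries with control vector enter the first and the second comparison in opposite roles. A low value in them therefore moves a gene toward a fall in the first and a rise in the second. The share of all genes with each pattern is not given here, so the counts below are descriptions. With 23 members a fall after infarction went with no call for Irx3 vector and a fall of the Irx3 hearts against sham. Another 8 fell after infarction and rose with Irx3 vector: Ndufv2, Ndufa5, Ndufab1, Ndufb5, Ndufc2, Ndufaf1, Ndufaf4 and Ndufaf7. Ndufa5 and Ndufaf4, 2 of these, still fell and rose after the GC correction, and the other 6 rises did not pass. As counted, 7 of the 8 did not pass between Irx3 hearts and sham hearts, at log2 fold changes of 0.01 for Ndufv2, 0.03 for Ndufb5, 0.20 for Ndufa5, 0.20 for Ndufaf1, -0.16 for Ndufc2, -0.18 for Ndufab1 and -0.34 for Ndufaf7. For Ndufa5 the sham hearts had 118, 85.9, 96.03 and 115 CPM. For Ndufb5 they had 161, 116, 111 and 160.1 CPM, and for Ndufc2 93.03, 84.3, 88.3 and 89.3 CPM. The Irx3 hearts, given above, overlapped them in each gene. For Ndufaf1 the sham hearts had 19.4, 20.3, 19.8 and 22.2 CPM and for Ndufaf7 23.8, 22.4, 27.3 and 23.7 CPM, again overlapping the Irx3 hearts. For Ndufb2, which did not pass against sham in either infarcted group, they had 11.3, 6.47, 4.44 and 7.51 CPM, for Ndufa11 266, 319, 315 and 279.7 CPM and for Ndufb7 303, 424, 475 and 319 CPM. Every Irx3 library lay below every sham library in Ndufa11 and Ndufb7, and the groups overlapped in Ndufb2. After the GC correction Ndufab1 and Ndufaf7 were lower in the Irx3 hearts than in sham hearts, at -0.67 and -0.62 (edgeR adjusted p = 0.0418 and 0.00301). Ndufv2 stood at -0.59 after the correction (edgeR adjusted p = 0.158), and without replicate 4 of the Irx3 hearts it was called lower, at -0.93 (edgeR adjusted p = 0.022). Ndufs7, Ndufb7, Ndufa2 and Ndufaf3 fell in all 3 comparisons as counted. After the correction all 4 still fell in both comparisons with sham hearts, and none of the 4 passed between Irx3 and control vector. Ndufa1 was the 1 member that fell in all 3 comparisons after the correction. It stood at -0.86 in the first, -0.78 in the second and -1.64 in the third (edgeR adjusted p = 0.0021, 0.00876 and 2.86e-05).

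Ndufa4 and its paralog Ndufa4l2 ran opposite ways after infarction. Ndufa4 is named as a complex I gene, but its protein is now placed in cytochrome c oxidase. It had 152, 238, 168 and 364 CPM with Irx3 vector and infarction, 165, 246, 159 and 83.2 CPM with control vector and infarction, and 341, 332, 347 and 345 CPM in sham hearts. It fell by 1.06 after infarction with control vector (SE 0.31, edgeR adjusted p = 0.0113) and did not pass in the other 2 comparisons as counted. With the correction it was lower in Irx3 hearts than in sham hearts, at -1.17 (edgeR adjusted p = 0.00278) against -0.57 as counted, and this call was kept with each of the 12 libraries left out. Ndufa4l2, which hypoxia-inducible factor is known to raise and which lowers complex I activity in cultured cells, had 19.5, 16.7, 22.5 and 17.9 CPM with Irx3 vector and infarction, 38.7, 30.3, 33.1 and 52.2 CPM with control vector and infarction, and 19.1, 22.98, 21.6 and 25.9 CPM in sham hearts. All 4 infarcted hearts with control vector were above all 8 others, and replicate 4 was the highest.

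Ndufa4l2 rose 1.72-fold after infarction with control vector (log2 fold change 0.78, SE 0.17, edgeR adjusted p = 0.00224). Among infarcted hearts it was 2.01-fold lower in those with Irx3 vector (log2 fold change -1.01, SE 0.17, edgeR adjusted p = 0.000452). Both calls were kept with each of the 12 libraries left out. After the GC correction the rise was 0.74 (edgeR adjusted p = 0.00132), and the difference with Irx3 vector no longer passed at -0.35 (edgeR adjusted p = 0.101). The GC content of its transcript was 59.3%, against 44.5% for Ndufa4. Against sham, Irx3 hearts stood at -0.22 as counted (edgeR adjusted p = 0.27) and at 0.39 after the correction (edgeR adjusted p = 0.04), so the sign depended on it.

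Ndufa12 could not be read with confidence, because the table also holds its processed pseudogene Ndufa12-ps at a like level. Ndufa12 had 19.6, 109.9, 78.3 and 165 CPM with Irx3 vector and infarction, 86.3, 62.4, 97.1 and 20.1 CPM with control vector and infarction, and 59.2, 155, 194 and 176 CPM in sham hearts. The pseudogene took 14.7% to 65.9% of the sum of the 2 genes in the Irx3 hearts, 19.7% to 62.9% in the infarcted hearts with control vector and 23.1% to 65.9% in sham hearts. Sham replicate 1 was lowest for Ndufa12 and highest for the pseudogene among sham hearts, with 59.2 and 114.5 CPM. The sum ran from 57.6 to 198.2 CPM with Irx3 vector and infarction, from 54.3 to 123.6 CPM with control vector and infarction, and from 173.7 to 252.3 CPM in sham hearts. With the counts of the pseudogene added, Ndufa12 was called lower after infarction with control vector, at -1.18 (SE 0.33, edgeR adjusted p = 0.0102), and in the Irx3 hearts against sham, at -0.91 (SE 0.33, edgeR adjusted p = 0.028).

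The enzyme was compared with other genes of the same pathway. Of 10 assembly factors under other names, 8 fell after infarction with control vector and none rose, against 22.4% lower and 26.3% higher of all genes tested, with a median of -0.85. With Irx3 vector, 3 of the 10 rose over control vector and none fell: Tmem70, Lyrm2 and Tmem126b, at 0.88, 0.87 and 0.79 (edgeR adjusted p between 0.001 and 0.00936). Of all genes 25.2% rose in that comparison, close to the share in this list. None of the 3 passed after the GC correction, at 0.25, 0.42 and 0.16 (edgeR adjusted p between 0.128 and 0.445). Among the 51 nuclear genes of complexes II to V that could be tested, 40 fell after infarction and none rose. Of all genes 22.4% fell and 26.3% rose in that comparison. The median of the 51 was -1.02, close to the -0.97 of the Nduf genes. With Irx3 vector against control vector 6 rose and 6 fell, against 25.2% higher and 24.1% lower of all genes tested, with a median of -0.08. Of the 51, none rose and 3 fell after the GC correction, with a median of 0.03. These shares were under those of all genes, 13.7% higher and 13.3% lower. For Irx3 hearts against sham 35 fell and none rose, against 27.7% and 35.2% of all genes, with a median of -0.95.

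The 7 mitochondrially encoded subunits of complex I were set beside the nuclear members. Against control vector after infarction all 7 rose with Irx3 vector, as did 25.2% of all genes tested. Their log2 fold changes were 2.38 to 5.49, while the nuclear members had a median of 0.13. Their summed level was 36899.9 to 81662 CPM with Irx3 vector and infarction, 2804 to 16757 CPM with control vector and infarction, and 16190.7 to 28032 CPM in sham hearts. In these sums, which are not corrected for GC content, every Irx3 library was above every other library. The groups of infarction with control vector and sham overlapped at 1 library. After the GC correction 6 of the 7 were still called higher for Irx3 vector against control vector, against 13.7% of all genes, with a median of 1.88. In Irx3 hearts against sham 6 of the 7 rose as counted, against 35.2% of all genes, with a median of 1.98. With the correction 3 of the 7 rose, against 32.5% of all genes, with a median of 0.46. After infarction with control vector 3 of the 7 fell as counted, with a median of -1.44, against 22.4% of all genes. With the correction all 7 fell, against 22.4% of all genes, with a median of -1.40. No test compared the nuclear with the mitochondrial subunits.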

How the data were processed

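Polyadenylated RNA of 12 left ventricles, 4 mice in each of 3 groups and 1 batch by the labels, was sequenced. The authors deposited whole-number read counts for each gene and library, not normalised. Per the submitters' processing notes, reads were cleaned with fastp and the build was GRCm39 (mm39). The aligner, counting tool, annotation release and strand handling are each not given in the sources used here; reads of a gene and an antisense partner or near-identical copy may therefore be mixed. Totals were 13352604 to 19236721 counts. A chi-square check of genes with at least 20 counts found no duplicate among 66 pairs of libraries.

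The test was the quasi-likelihood F test of edgeR 4.0.16 (R 4.3.3; robust, TMM, filterByExpr by group), with a term for each group, all 12 libraries in the fit and 9 residual degrees of freedom. Calls needed an adjusted p under 0.05, by Benjamini and Hochberg, over 15742 genes. SE is the size of the log2 fold change over the square root of F. CPM uses TMM factors, and single-library log2 values use a prior count of 1. For the GC correction, each library's deviation in log2 CPM was fitted on GC content by a natural spline (6 degrees of freedom, 3 rounds, residuals past 2.5 median absolute deviations dropped, mean log2 CPM of 2 or more) and used as an offset. GC content and exon length came from GENCODE M21 (GRCm38), matched by symbol or RefSeq synonym for 15378 genes tested, all 47 members tested included. Since the counts are on GRCm39, no positions were joined to them. The fits were tested on simulated data.

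The members and lists were chosen with earlier results of these data known. Values in every library are given for core subunits, up to 4 members per comparison and direction with the largest called change, Ndufa4, Ndufa4l2, Ndufab1, and members called in opposite directions after infarction and with Irx3 vector; any member may be named. The result of 1 core subunit is not reported here. Alternatives were DESeq2 1.42.0, RLE factors, other filters, fits of only 2 groups, removal of mitochondrial genes, a replicate block, GC correction, and each library left out. Adding pseudogene counts to parents, and GC correction with each library left out, were chosen after seeing the data.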

Additional observations from a re-analysis of the deposited data

Results flagged for a closer look

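In 2 of 72 sets of 4 libraries (23 genes and their sum, in each group), 1 library stood far from the other 3 by Dixon's criterion, which chance flags in about 1 of 20 sets. Ndufv1 in replicate 4 of infarction with control vector had 398 CPM, against 623 to 658 CPM in the other libraries of its group. Ndufaf2 in replicate 4 of infarction with Irx3 vector had 13.1 CPM, against 6.26 to 7.18 CPM in the others. The call of Ndufv1 after infarction and that of Ndufaf2 with Irx3 vector were both kept with each of the 12 libraries left out.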

How the results depend on the processing

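The counts of falls after infarction with control vector (34 to 43 with 1 library left out) and of Irx3 hearts against sham (26 to 33) stayed within 1.5 times the value reported under every alternative run, and the medians of the members moved by less than the spread between library medians. The counts for Irx3 vector against control vector did not. Falls, 6 as reported, were 3 with only the 2 groups compared, 1 with the GC correction, 1 with the correction and replicate block, 2 to 15 with 1 library left out, and 1 to 3 with the correction and 1 library left out. Rises, 10 as reported, were 3 without the filter on low counts, 6 with only the 2 groups compared, 6 with the replicate block, 4 with the GC correction, 2 with both, 6 to 14 with 1 library left out, and 1 to 5 with the correction and 1 library left out, or 9 when that was replicate 2 of infarction with control vector. Rises of Irx3 hearts against sham, 2 as reported, were 1 without the filter, 1 with the replicate block, 1 with block and correction, 1 to 2 with 1 library left out and 0 to 2 with the correction and 1 library left out. In that last case edgeR called 0 without sham replicate 1 or 2, and the cause was not tested. Replicate numbers did not pair the libraries: same-numbered residuals correlated at -0.60 to 0.18 over 12 pairs, and 0 libraries correlated best with their own number.

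With the GC correction 15 of the 47 members had another sign for Irx3 vector against control vector, none of them called in either fit. Among them were Ndufv1 (0.10), Ndufs8 (0.05), Ndufs3 (0.20) and Ndufa4 (-0.14). For Irx3 hearts against sham 5 did, Ndufv2 (-0.59), Ndufaf1 (-0.21), Ndufb5 (-0.07), Ndufb1 (0.08) and Ndufa4l2, the only 1 of them called, after correction. After infarction with control vector 0 did. Among named results called as reported or in the alternative, signs turned as follows, and the cause was not tested. For Irx3 vector against control vector after infarction, GC correction gave Ndufb7 0.042 without replicate 1 and 0.035 without replicate 3 of the Irx3 hearts, and Ndufaf7 -0.054 without replicate 4. For Irx3 hearts against sham, the log2 fold change of Ndufa4l2 was 0.39 with GC correction, 0.40 with correction and replicate block, and 0.50, 0.39, 0.39, 0.39, 0.49 and 0.42 with correction and without sham replicate 4, replicates 2, 3 or 4 of infarction with control vector, or replicates 2 or 4 of the Irx3 hearts. In the same comparison Ndufaf4 was -0.0137 with block and correction, and with correction -0.0241 without sham replicate 2 and -0.241 without replicate 4 of the Irx3 hearts. Without that same replicate 4 the correction gave Ndufv2 -0.93, called lower (edgeR adjusted p = 0.022).

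Depth limits the low members: Ndufb2 and Ndufaf2 held at most 19.3 and 13.1 CPM in any library, and Ndufb11b could not be tested.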

Other observations

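The assembly complex in which Ndufaf1 works also holds Ecsit, Acad9 and Tmem126b. All 3 fell after infarction with control vector against sham, with log2 fold changes of -1.07, -0.67 and -0.76 (SE 0.25, 0.18 and 0.15, edgeR adjusted p = 0.0033, 0.00684 and 0.00137). With Irx3 vector against control vector after infarction, Tmem126b was higher by 0.79 (SE 0.15, edgeR adjusted p = 0.001), beside 1.08 for Ndufaf1. Ecsit and Acad9 did not pass, at -0.12 and -0.03 (edgeR adjusted p = 0.715 and 0.913). After the GC correction Tmem126b stood at 0.16 (edgeR adjusted p = 0.445) and Ndufaf1 at 0.63 (edgeR adjusted p = 0.101). Foxred1, another assembly factor, and Tmem186 fell after infarction by 1.02 and 0.99 (SE 0.20 and 0.17, edgeR adjusted p = 0.00101 and 0.000563) and in the Irx3 hearts against sham by 0.94 and 1.15 (SE 0.20 and 0.18, edgeR adjusted p = 0.00102 and 0.000104). Dmac1 did not pass after infarction at -0.35 (SE 0.14, edgeR adjusted p = 0.0616).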
